A study of Xenopus laevis with 12 samples.

Results

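The *Xenopus laevis* genes described here encode proteins of acid, base and ammonia transport in ionocytes, the transcription factor that specifies these cells, and an insulin receptor-related receptor. They were taken as every gene in the deposited tables named *foxi1*, *ca2*, *slc26a4.3*, *rhcg* or *insrr*, with either homeolog suffix, which gave 9 of 42638 genes. Suffixes .L and .S mark the copies on the long and short subgenomes of this allotetraploid frog, and *rhcg* had an L copy only in these tables. The genes were chosen by their measured values in these same libraries, and every level and difference below is therefore a description of the genes with no test of them. All 9 were above 1.8 CPM (counts scaled by TMM to a common library total) in all 12 libraries, so no member was lost to the filter on low counts and none passed it through a single group.

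Wild-type embryos grew up together in cohorts of 100 (called small) or 300 (called large), in 0.1x MMR alone as controls or with 90 µM thioridazine, a phenothiazine antipsychotic that blocks dopamine receptors. RNA was taken from pools of 15 whole tadpoles at stage 35, and 3 libraries were sequenced for each of 4 groups, which are called control small and large and thioridazine small and large. The labels place exposure between stages 12.5 and 35 but also mention embryos of stage 25, and the study ends exposure at about that stage and describes a brief recovery in medium before stage 35 sampling, so the window is unsettled. Volume of medium was scaled to cohort size, and the study describes embryos of an experiment both as from the same clutch and as pooled from separate mothers before being divided between treatments. It repeated experiments independently, but the labels do not tie these 3 libraries per group to separate repeats or mothers, so the spread between libraries, and every p-value built on it, may be technical.

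Ionocytes are scattered cells of the larval frog skin that exchange ions and acid equivalents with the surrounding water, and they share much of their equipment with intercalated cells of the mammalian kidney. In both, cytosolic carbonic anhydrase converts carbon dioxide and water into a proton and bicarbonate. A V-type ATPase or an anion exchanger then carries each product across opposite faces of the cell. *foxi1* encodes the forkhead factor that drives ionocyte fate in frog epidermis, *ca2* the cytosolic carbonic anhydrase, *slc26a4.3* a pendrin-family exchanger of chloride for bicarbonate, and *rhcg* an ammonia channel of the Rh family. *insrr* encodes a receptor related to the insulin receptor that, in mammals, is activated by mildly alkaline fluid. Ionocytes are a minority of the cells of a whole tadpole, so in these pools fewer ionocytes and less RNA per ionocyte cannot be told apart.

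Library totals of expected counts ran from 4887343 to 7497662. A library with 0 counts of a gene is compatible with up to 3 counts, a floor of 0.400 to 0.622 CPM. The lowest member value was 2.13 CPM. Ionocyte markers other than the members were detected. Their mean levels over the 12 libraries were 38.5 CPM for *atp6v0a4.L*, 31.1 CPM for *atp6v1b1.L*, 3.78 CPM for *ubp1.L* and 2.68 CPM for *ubp1.S*. They were 44 CPM for *slc4a1.L*, 46.3 CPM for *slc4a1.S* and 6.89 CPM for *ca12.L*. These last genes are followed below only within their lists, and their own differences between groups are not given. The markers with differences given below are therefore only a part of the marker list. A gene named plainly *slc26a4* had no entry. Transcript lengths were not given, so levels are compared between groups for a gene and never between genes. Reads that match both homeologs were divided between them by the authors' estimation of counts, and values of a homeolog pair are uncertain to that extent.

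The summed level of the 9 genes was lowest in the libraries of large thioridazine cohorts. Their summed level was 341, 342 and 371 CPM in control small, 329, 330 and 332 CPM in control large, 368, 306 and 343 CPM in thioridazine small, and 164, 226 and 244 CPM in thioridazine large (replicates 1, 2 and 3 in each case). The highest thioridazine large library stood below the lowest library of any other group. Most of the sum came from the *ca2* and *slc26a4.3* pairs, with means of 162.1 and 130.3 of 351 CPM in control small. In thioridazine large they were 129.1 and 50.4 of 211 CPM. The sum therefore says little about the other members, which are given singly below. Between the thioridazine groups the log2 differences were largest for both *slc26a4.3* homeologs and *insrr.L*, and smallest for *ca2.L*.

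**Figure D1:**
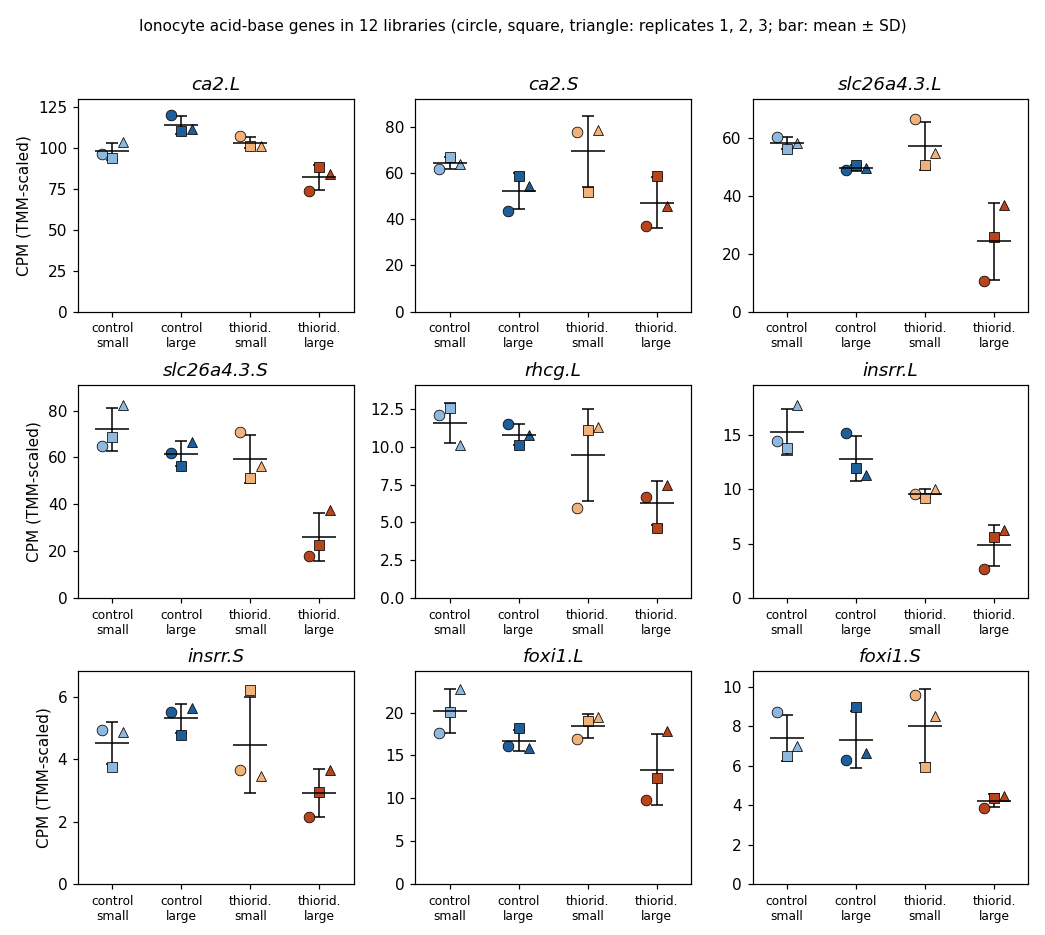
TMM-scaled CPM (linear axes from 0) of the 9 genes in 12 libraries, with a panel for each gene, a symbol shape for each replicate and bars for the mean ± SD of 3 libraries. In the *slc26a4.3.S* panel the thioridazine large libraries lie between 17.9 and 37.5 CPM, below the other 9 libraries.

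The ionocyte-specifying factor *foxi1* was followed first. *foxi1.L* stood at 17.6, 20.1 and 22.7 CPM in control small, 16.1, 18.2 and 15.9 CPM in control large, 16.9, 19.0 and 19.5 CPM in thioridazine small, and 9.79, 12.3 and 17.9 CPM in thioridazine large. Only replicates 1 and 2 of thioridazine large stood below the other groups, and replicate 3 overlapped each of them. The ranges of all neighbouring groups in the order control small, thioridazine small, control large and thioridazine large overlapped. Within thioridazine the L copy was 0.60 ± 0.20 lower on the log2 scale in large than in small cohorts (SE), that is a log2 difference of -0.60, and the difference was -0.34 without replicate 1 of thioridazine large.

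*foxi1.S* was measured at 8.75, 6.50 and 6.999 CPM in control small, 6.32, 8.99 and 6.66 CPM in control large, 9.59, 5.93 and 8.51 CPM in thioridazine small, and 3.86, 4.38 and 4.47 CPM in thioridazine large. The 3 thioridazine large libraries lay close together and below the other 9, whose group means of 7.32 to 8.01 CPM did not separate. The log2 difference between large and small thioridazine cohorts was -0.73 ± 0.26, or 1.66-fold lower. The S copy thus separated thioridazine large from the other groups, and the L copy did not.

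Carbonic anhydrase 2, which feeds both the proton pump and the bicarbonate exchanger, differed least between thioridazine cohorts. *ca2.L* stood at 96.2, 93.9 and 103.7 CPM in control small, 120.3, 110.1 and 111.5 CPM in control large, 107.0, 101.2 and 101.0 CPM in thioridazine small, and 73.6, 88.5 and 84.1 CPM in thioridazine large. In controls the large cohorts were above the small ones without overlap, while under thioridazine they were below without overlap. The log2 differences of large against small cohorts were 0.26 ± 0.08 in controls and -0.29 ± 0.09 under thioridazine. In the order of levels, control large was clear of thioridazine small, thioridazine small overlapped control small, and thioridazine large lay below all.

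*ca2.S* showed a wider spread, with 61.8, 66.9 and 63.9 CPM in control small, 43.3, 58.5 and 54.4 CPM in control large, 77.5, 51.8 and 78.5 CPM in thioridazine small, and 36.8, 58.7 and 45.5 CPM in thioridazine large. Here large cohorts were below small ones in controls without overlap, the opposite of the L copy, and under thioridazine the ranges overlapped because replicate 2 of thioridazine small was low and replicate 2 of thioridazine large was high. The log2 differences of large against small cohorts were -0.23 ± 0.14 in controls and -0.46 ± 0.16 under thioridazine. They were -0.005 in controls without replicate 1 of control large and -0.87 under thioridazine without replicate 2 of thioridazine large. The size of the fitted difference in controls thus depended on replicate 1 of control large. The direction in CPM did not, since the other control large libraries (58.5 and 54.4 CPM) also lay below every control small library. Without replicate 1 of control large the log2 difference of *ca2.L* in controls was 0.21. The share of *ca2* counts from the L copy was 60.4 ± 1.8% in control small and 68.7 ± 4.29% in control large (SD, n = 3). The summed level of the pair overlapped there, at 162.1 ± 4.9 and 166 ± 2.5 CPM. Under thioridazine the L share was 60.2 ± 5.29% in small and 63.9 ± 3.41% in large cohorts. Carbonic anhydrase 2 is also abundant in red blood cells. The summed level of 16 erythroid marker genes, including globins, was 410 to 661 CPM in control small, 711 to 826 CPM in control large, 612 to 656 CPM in thioridazine small and 580 to 700 CPM in thioridazine large, and none of them was at 0 in all libraries of a group. The erythroid sum was higher in large than in small control cohorts, as *ca2.L* was, and its part in that result was not tested.

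The pendrin-family exchanger *slc26a4.3*, the route by which base-secreting ionocytes release bicarbonate, was below every other group in thioridazine large. *slc26a4.3.L* stood at 60.6, 56.1 and 58.4 CPM in control small, 48.9, 50.8 and 49.5 CPM in control large, 66.7, 50.7 and 54.9 CPM in thioridazine small, and 10.5, 25.7 and 36.9 CPM in thioridazine large. The 3 thioridazine large libraries were spread over more than the whole range of the other 9 and none of them reached it. Against thioridazine small the log2 difference was -1.22 ± 0.26, or 2.33-fold lower, and without replicate 1 of thioridazine large it was -0.90.

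*slc26a4.3.S* was measured at 64.7, 68.8 and 82.5 CPM in control small, 61.9, 56.3 and 66.7 CPM in control large, 71.0, 51.2 and 56.3 CPM in thioridazine small, and 17.9, 22.8 and 37.5 CPM in thioridazine large. The other 3 groups overlapped each other, and thioridazine large was clear of all of them. The log2 difference between large and small thioridazine cohorts was -1.16 ± 0.21, or 2.23-fold lower, and -1.01 without replicate 1 of thioridazine large. Between large control and large thioridazine cohorts it was -1.50 ± 0.27. On average both homeologs held a similar part of the pair's counts in every group. L copies made up 44.9% (small) and 44.7% (large) of *slc26a4.3* counts in controls and 49.2% (small) and 46.5% (large) under thioridazine. Single libraries ran from 36.9% (replicate 1) to 53% in thioridazine large, beside 48.4 to 49.7% in thioridazine small.

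Other members of this small gene cluster were close to silent. Over all 12 libraries *slc26a4.1.L* had 1 count, *slc26a4.1.S* 40, *slc26a4.2.L* 8 and *slc26a4.2.S* 4, and these were not tested. A further gene with a related name, *slc26a4l.L*, was singled out after its values were seen. It stood at 38.5 to 57.1 CPM in control small, 33.2 to 39.8 CPM in control large, 30.5 to 56.8 CPM in thioridazine small and 18.1 to 28.1 CPM in thioridazine large. It was thus also below the other groups in thioridazine large, with a log2 difference of -1.003 ± 0.223 between large and small thioridazine cohorts that was not past the threshold (limma adjusted p = 0.128).

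The ammonia channel gene *rhcg.L* stood at 12.1, 12.6 and 10.1 CPM in control small, 11.5, 10.2 and 10.8 CPM in control large, 5.94, 11.1 and 11.3 CPM in thioridazine small, and 6.68, 4.64 and 7.5 CPM in thioridazine large. Replicate 1 of thioridazine small was as low as the large thioridazine cohorts, so the thioridazine groups overlapped, while thioridazine large was clear of both control groups. The log2 difference between thioridazine cohorts was -0.90 ± 0.20 in the fit with surrogate variables (estimated covariates for unexplained variation). Without them it was -0.61 ± 0.25, so its size depended on the model. In the fit with surrogate variables it was -0.28 when replicate 3 of thioridazine small was left out. *rhcg.L* is therefore the member whose difference between thioridazine cohorts moved most when a single library was removed.

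Between treatments 11% of all genes were lower without overlap in small cohorts and 12.2% in large ones. Among the members only *insrr.L*, the pH-sensing receptor of mammals, was lower without overlap in both. It was measured at 14.4, 13.8 and 17.8 CPM in control small, 15.2, 12.02 and 11.3 CPM in control large, 9.59, 9.17 and 10.01 CPM in thioridazine small, and 2.70, 5.57 and 6.28 CPM in thioridazine large. The control groups overlapped each other, thioridazine small lay below both, and thioridazine large lay below thioridazine small. Against controls the log2 difference was -0.93 ± 0.33 in small cohorts, where it was not called and stood at -0.56 without replicate 2 of thioridazine small, and -1.87 ± 0.35 in large cohorts. Between thioridazine cohorts it was -1.06 ± 0.27, or 2.08-fold lower, and -0.68 without replicate 1 of thioridazine large.

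*insrr.S*, the short-subgenome copy of the receptor gene, stood at 4.95, 3.75 and 4.87 CPM in control small, 5.51, 4.78 and 5.64 CPM in control large, 3.64, 6.22 and 3.47 CPM in thioridazine small, and 2.13, 2.94 and 3.66 CPM in thioridazine large. Only the separation of thioridazine large from both control groups was free of overlap. The share of *insrr* counts from the L copy was 77.2 ± 2.34% in control small, 70.6 ± 3.47% in control large, 68.8 ± 8.02% in thioridazine small and 61.5 ± 5.01% in thioridazine large (SD, n = 3). Mean share and level of the L copy were thus both lowest in thioridazine large. The *insrr* share there ran from 55.9 to 65.5%, on 34, 55 and 57 counts of the pair, and overlapped thioridazine small (59.6 to 74.3%). In *foxi1* the mean L share in thioridazine large was 75.2%, beside 69.7 to 72.9% in the other groups, with SDs of 2.57 to 6.2 that cover the gap.

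The question of whether cohort size matters under thioridazine was addressed by comparing thioridazine large with thioridazine small over all genes. All 9 members were lower in large cohorts, with log2 differences from -1.22 (*slc26a4.3.L*) to -0.29 (*ca2.L*) and a median of -0.73, where the median over the 25553 genes tested was 0.002. The libraries of the groups did not overlap for 5 members (*ca2.L*, *foxi1.S*, *insrr.L* and both *slc26a4.3* copies), against 5.28% of all genes in that direction. In the limma fit with 2 surrogate variables (estimated covariates for unexplained variation) 0 of 9 passed an adjusted p under 0.05, where 0.0939% of all genes were called in either direction. Without surrogate variables 1 of 9 was past it, against 0.0626% of all genes. Leaving out a library gave at most 2 of 9, which was reached without replicate 3 of control large (0.138% of all genes), replicate 3 of thioridazine small (0.519%), or replicate 2 (0.287%) or replicate 3 (0.11%) of thioridazine large. Ranked from the lowest difference over all genes in the fit with surrogate variables, *slc26a4.3.L* was at 117, *slc26a4.3.S* at 132, *insrr.L* at 158 and *rhcg.L* at 243 of 25553. Since the members were chosen with these values known, no test is read from the ranks or counts.

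In controls the same change of cohort size gave small differences in mixed directions. Of the 9 genes 7 were below 0 and 2 (*ca2.L* and *insrr.S*) above, from -0.25 (*foxi1.L*) to 0.26 (*ca2.L*), with a median of -0.16 beside -0.005 over all genes. Libraries did not overlap for *ca2.S* and *slc26a4.3.L* in the lower direction, against 7.44% of all genes, and for *ca2.L* in the higher direction, against 8.52% of all genes. No member was called, where 0.294% of all genes were called in either direction. The difference between the cohort size effects, the interaction, was below 0 for all 9 genes, from -1.05 ± 0.33 (*slc26a4.3.L*) to -0.23 ± 0.21 (*ca2.S*), and 0 of 9 were called, where 0.0744% of all genes were called in either direction. With a filter at 5 CPM 3 of 9 were called (0.23% of all genes), and 2 of 9 without replicate 3 of control large (0.0668%) or replicate 3 of thioridazine large (0.118%). Without replicate 1 of thioridazine large the interaction of *slc26a4.3.L* was -0.64, that of *insrr.L* moved from -0.94 to -0.48, that of *foxi1.L* from -0.35 to -0.06 and that of *ca2.S* to -0.045, and without replicate 3 of thioridazine small that of *rhcg.L* moved from -0.71 to -0.20.

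Thioridazine was then compared with control within each cohort size. In large cohorts all 9 genes were lower, with a median log2 difference of -0.80 and a lowest value of -1.87 (*insrr.L*). All 9 were also below 0 without surrogate variables, but sizes depended on the model for some. *ca2.S* was at -0.55 with surrogate variables and -0.15 without, and *rhcg.L* at -0.18 and -0.825. Libraries did not overlap for 7 of them, all but *ca2.S* and *foxi1.L*, against 12.2% of all genes. The fit called 3 of 9 lower (*ca2.L*, *insrr.L* and *slc26a4.3.S*), against 0.102% of all genes, and 4 of 9 without surrogate variables, when *slc26a4.3.L* was added and 1.31% of all genes were called lower. The count of 3 became 0 without replicate 1 or replicate 2 of control large, 1 without replicate 2 of control small, and 5 without replicate 1 or replicate 3 of thioridazine small, where calls over all genes also rose, to 4.84% and 3.93%. Without replicate 1 of thioridazine large the log2 difference of *foxi1.L* moved from -0.36 to 0.01, that of *slc26a4.3.L* from -1.66 to -0.71 and that of *insrr.L* from -1.87 to -1.16. This comparison shares its thioridazine large libraries with the comparison of cohort sizes, so that both hold the same low values.

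In small cohorts the direction depended on the model for several genes. Log2 differences were below 0 for 8 of 9 members with surrogate variables and for 6 of 9 without, with medians of -0.32 and -0.07. *rhcg.L* stood at 0.52 ± 0.28 with surrogate variables and at -0.30 without, although its CPM were lower on average under thioridazine (9.47 ± 3.06 against 11.6 ± 1.30). The first surrogate variable had 67.9% of its variance between treatments, so part of a treatment difference can be moved into it. *insrr.L* alone was free of overlap between the groups, against 11% of all genes in the lower direction, and 0 members were called, where 0.16% of all genes were called in either direction. Its difference was -0.93 with surrogate variables and -0.66 without.

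**Figure D2:**
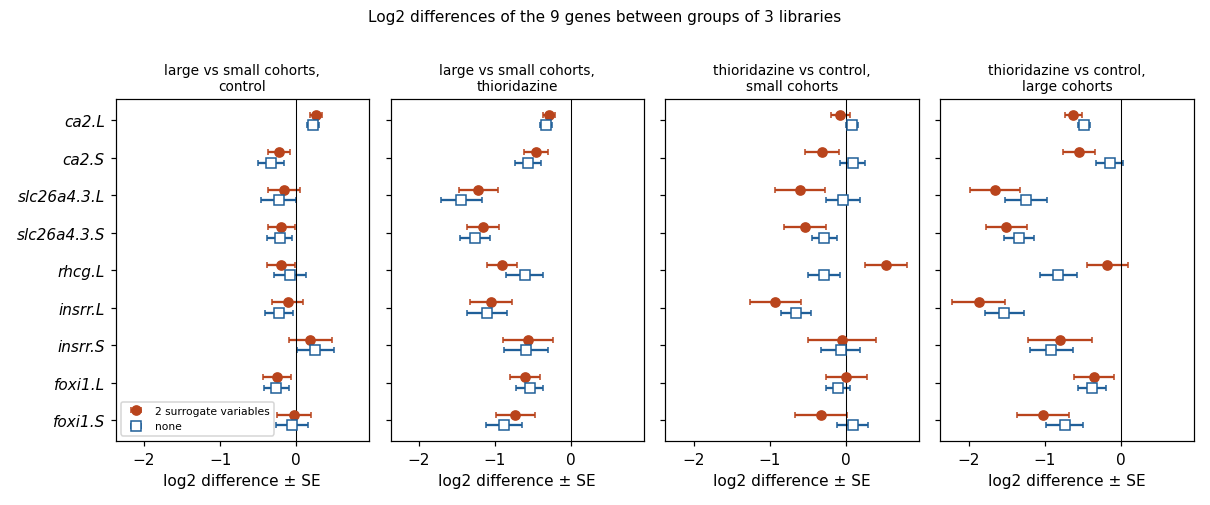
Log2 differences (± SE) of the 9 genes in 4 comparisons of 3 against 3 libraries, from limma fits with 2 surrogate variables (filled circles) and with none (open squares), and a line at 0. All genes lie left of 0 for large against small thioridazine cohorts in both fits, while *rhcg.L* changes side for thioridazine against control in small cohorts.

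The libraries of large thioridazine cohorts were not alike. Replicate 1 was the lowest of its group for 8 of 9 members and the lowest of all 12 libraries for 8, the exception being *rhcg.L*, which was lowest in replicate 2. Replicate 3 was the highest of its group for 7 members. *slc26a4.3.L* ranged over 10.5 to 36.9 CPM within the group and *foxi1.L* over 9.79 to 17.9 CPM, while *foxi1.S* varied by 0.332 CPM (SD). The median deviation of the members from their group mean was -0.40 on the log2 scale in replicate 1 and 0.36 in replicate 3, and it was -0.06 to 0.08 in the 9 libraries of the other groups. All 9 genes kept the sign of the difference between thioridazine cohorts, and of the interaction, in all 20 alternative fits, those without replicate 1 included.

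Across the 12 libraries all 36 pairs of members had a Pearson correlation above 0 on log2 CPM, from 0.121 to 0.936 with a median of 0.705. These points share the group structure, since thioridazine large is low for all. After the group means were removed, the pairs ranged from -0.535 to 0.877 with a median of 0.364, and 28 of 36 remained above 0. Below 0 were *rhcg.L* with *ca2.L* (-0.493), *ca2.S* (-0.535), *foxi1.S* (-0.446), *insrr.L* (-0.113), *slc26a4.3.L* (-0.168) and *slc26a4.3.S* (-0.146). So were *insrr.S* with *ca2.S* (-0.326) and with *foxi1.S* (-0.326). Within groups *rhcg.L* thus did not follow most other members. The points are libraries of 15 pooled tadpoles each and the values are given as a description.

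**Figure D3:**
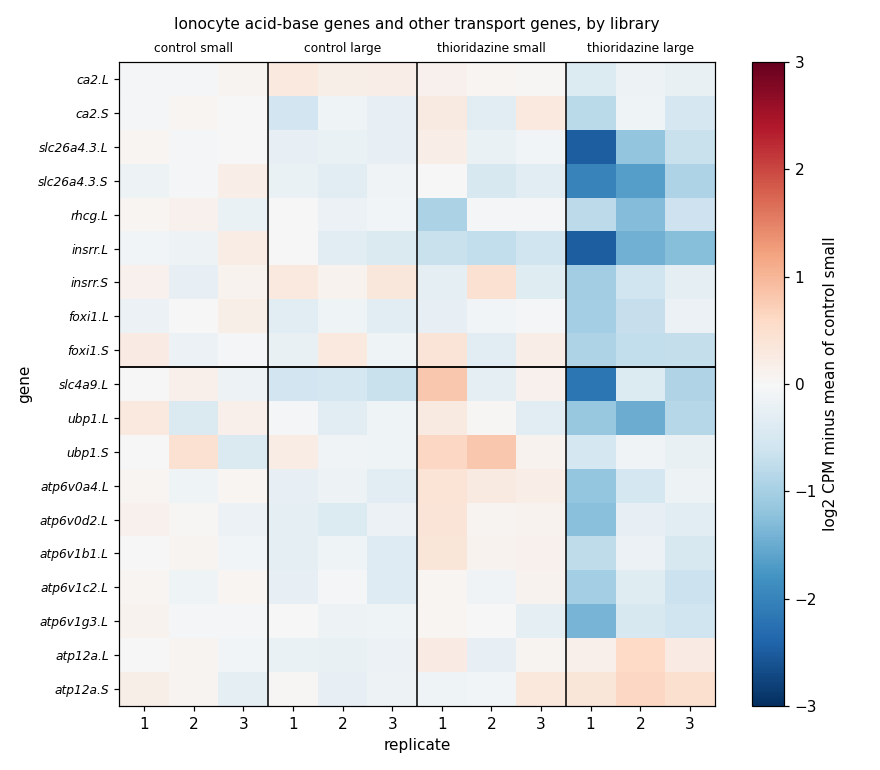
Log2 CPM of the 9 members (above the line) and of 10 other genes of the acid-base lists (below the line) in each library, minus the mean of control small for that gene. Below the line, all but *atp12a.L* and *atp12a.S* were singled out after their values were seen. Replicate 1 of thioridazine large is the darkest blue column for most members, while *atp12a.L* and *atp12a.S* run the other way.

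The rest of the ionocyte machinery was taken from lists of regulators, anion exchangers, carbonic anhydrases, ammonia transporters, proton pumps and exchangers, and salt transport genes. A further list held the insulin receptor family with its signalling partners. All these lists held 117 genes in the tables, of which 92 were tested. In the limma fit 0 of 92 were called in any of the 5 comparisons, with unadjusted p under 0.05 for 15 of 92 between thioridazine cohorts and 16 of 92 between treatments in large cohorts, beside 7.32% and 8.64% of all genes. edgeR's quasi-likelihood test called 0 of 92 between thioridazine cohorts and DESeq2 called 1, *atp12a.L*, at a log2 difference of 0.41 (adjusted p = 0.0346). The median difference over the 92 genes between thioridazine cohorts was 0.002, the same as over all genes, with 45 below 0 and 46 above. Leaving out a library raised the limma count between thioridazine cohorts to 2 (without replicate 3 of control large, replicate 3 of thioridazine small or replicate 2 of thioridazine large) or 1 (without replicate 3 of thioridazine large). Between treatments it reached 10 in small cohorts without replicate 3 of thioridazine small and 11 in large cohorts without replicate 1 of thioridazine small, fits in which 7.16% and 4.84% of all genes were called.

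Among regulators the grainyhead-family factor *ubp1*, an ionocyte marker, came closest to the members, and its copies were singled out after their values were seen. *ubp1.L* was 5.5, 3.29 and 4.98 CPM in control small, 4.41, 3.53 and 4.1 CPM in control large, 5.37, 4.59 and 3.60 CPM in thioridazine small, and 1.99, 1.55 and 2.44 CPM in thioridazine large, so that this last group lay below all others. Its log2 difference between thioridazine cohorts was -0.96 ± 0.32 and that of *ubp1.S* was -0.65 ± 0.36 (-0.99 without replicate 3 of thioridazine small), neither past the threshold (limma adjusted p = 0.442 and 0.752). The tested regulators with the highest mean CPM, *tfcp2l1.L* and *esrrg.L*, had differences of 0.14 ± 0.10 and -0.12 ± 0.12. Over 13 regulators the median was 0.003.

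Of the anion exchangers, *slc4a9.L*, a bicarbonate transporter found in base-secreting intercalated cells of mammals, was singled out in the same way. It stood at 7.28, 8 and 6.49 CPM in control small, 4.81, 4.98 and 4.47 CPM in control large, 12.7, 5.90 and 7.87 CPM in thioridazine small, and 1.56, 5.42 and 3.84 CPM in thioridazine large. Large cohorts were below small ones without overlap in both treatments, and the log2 difference under thioridazine was -1.02 ± 0.28 (limma adjusted p = 0.304), and -1.82 without replicate 2 of thioridazine large. The exchangers with the highest mean CPM, *slc4a11.L* and *slc4a7.L*, differed by 0.000 ± 0.13 and 0.02 ± 0.10. Over the 19 tested exchangers 10 were below 0 and the median was -0.03. Over 8 other carbonic anhydrases the median was -0.03, with *ca5b.L*, a mitochondrial form, at 0.13 ± 0.15 and the membrane form *ca14.L* at 0.20 ± 0.14. The ionocyte marker *ca12.L* was among these 8. Their lowest difference was -0.26, and 0 of them were lower in large thioridazine cohorts without overlap.

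Over the 11 tested proton pumps and exchangers 6 were below 0 and 5 above between thioridazine cohorts, with a median of -0.20. V-type ATPase subunits that in mammals are largely restricted to intercalated and similar cells, again singled out after their values were seen, were lower in large thioridazine cohorts without overlap in 5 of 6 cases, where 5.28% of all genes were. The exception was *atp6v1g3.S*, at -0.20 ± 0.39. *atp6v0a4.L* was 54.3, 49.1 and 47.5 CPM in thioridazine small and 18.5, 28.5 and 36.8 CPM in thioridazine large. It was 37.4 to 43.0 CPM in control small and 32.2 to 36.7 CPM in control large. *atp6v1b1.L* was 35.9 to 42.8 CPM in thioridazine small and 19.8 to 29.4 CPM in thioridazine large. It was 31.5 to 35.1 CPM in control small and 25.7 to 30.7 CPM in control large. Thioridazine small was the highest group for both, and replicate 1 of thioridazine large the lowest library. Large cohorts were thus below small ones without overlap in controls too. Of the 11 proton pumps and exchangers 4 were lower without overlap in controls and 1 higher, against 7.44% and 8.52% of all genes. Log2 differences between thioridazine cohorts were -0.80 ± 0.17 for *atp6v0a4.L*, -0.61 ± 0.18 for *atp6v0d2.L*, -0.56 ± 0.11 for *atp6v1b1.L*, -0.62 ± 0.14 for *atp6v1c2.L* and -0.57 ± 0.18 for *atp6v1g3.L*, with limma adjusted p from 0.0868 to 0.441. Without replicate 3 of thioridazine small that of *atp6v0d2.L* was -0.92 and that of *atp6v1g3.L* -0.89. The catalytic subunit of the non-gastric proton and potassium exchanging ATPase pointed the other way, with *atp12a.L* at 266 ± 44.9 CPM in small and 329 ± 55.7 CPM in large thioridazine cohorts, and a log2 difference of 0.42 ± 0.08 (limma adjusted p = 0.0868) that was 0.12 without replicate 2 of thioridazine large. *atp12a.S* was at 69.5 to 94.9 CPM and 97 to 116 CPM in the same groups, without overlap.

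Of 4 other tested ammonia transport genes 3 were below 0 between thioridazine cohorts, with a median of -0.25 and a lowest value of -0.46 (*rhag.L*), and their libraries overlapped. *rhbg.L*, a related ammonia channel, had lower mean levels under thioridazine in both cohort sizes, with 14.6 ± 1.2 CPM in control small, 16.2 ± 4.96 CPM in control large, 6.34 ± 1.46 CPM in small and 7.95 ± 1.46 CPM in large thioridazine cohorts, and its log2 difference between thioridazine cohorts was 0.18 ± 0.28. Its difference between treatments was not past the threshold with surrogate variables and was past it without them (log2 difference -1.19 in small and -1.02 in large cohorts, limma adjusted p = 0.0139 and 0.025). It was also past it in small cohorts without replicate 2 or 3 of thioridazine small or replicate 2 of thioridazine large (adjusted p from 0.00795 to 0.0323), and in large cohorts without any of the thioridazine small replicates (0.00855 to 0.0234). *rhbg.S* differed by -0.33 ± 0.21 between thioridazine cohorts. The 23 tested salt transport genes had a median of 0.05, with 7 below 0 and 16 above. A last list held the insulin and related receptors that *insrr* resembles in structure, and their intracellular signalling partners. Over its 14 tested genes the median was -0.02, with the signalling genes *pik3r1.L* at -0.16 ± 0.09 and *shc1.L* at -0.01 ± 0.09.

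**Figure D4:**
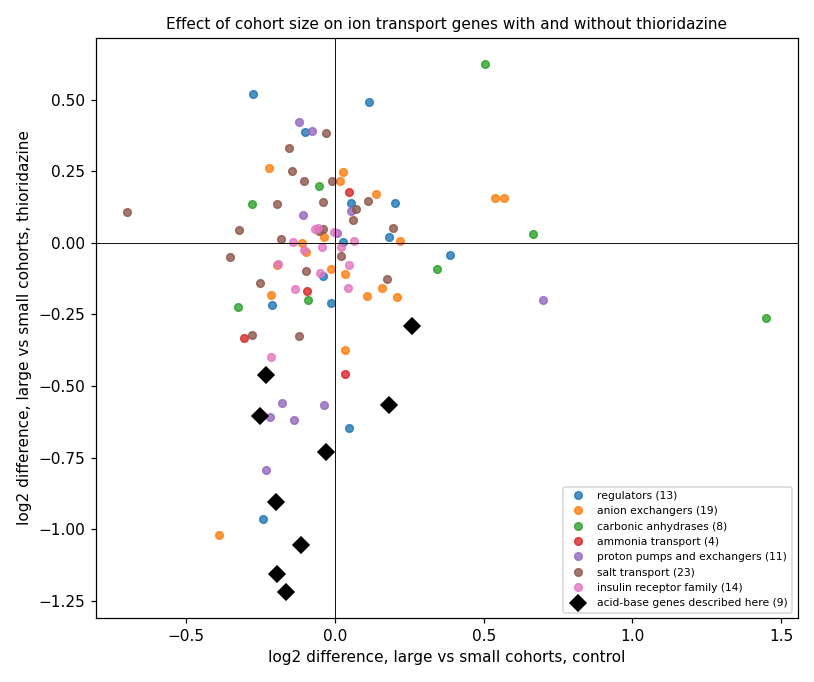
Log2 difference of large against small cohorts in controls (horizontal) and under thioridazine (vertical) for the 9 members (black diamonds) and the 92 tested genes of the acid-base lists (circles, coloured by list), with lines at 0. The members lie between -1.22 and -0.29 on the vertical axis, and the circles nearest to them include *slc4a9.L*, *ubp1.L* and *atp6v0a4.L*.

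Markers of other cells that share the skin, kidney or ear with these genes were summed for comparison. Between thioridazine small and thioridazine large the sums over each list were 524 to 677 and 682 to 739 CPM for 21 multiciliated cell genes, 2690 to 3700 and 3530 to 3580 CPM for 5 goblet and mucus genes, and 71.8 to 84.4 and 79.7 to 90.1 CPM for 5 genes of small secretory cells, of which 1 was at 0 throughout both small cohort groups. Basal epidermis (9 genes) was at 492 to 667 and 569 to 633 CPM, beside 696 to 776 CPM in controls. The pronephros, where kidney ionocyte genes are also used, was at 252 to 324 and 251 to 273 CPM over 13 genes, and the inner ear, where pendrin and *foxi1* are used in mammals, at 74.2 to 85.7 and 82.9 to 84.2 CPM over 7 genes. Of these sums only that of multiciliated cells did not overlap between the thioridazine groups, and it was higher in large cohorts, opposite to the members. Much of that sum came from the tubulin gene *tubb4b*. In small and large thioridazine cohorts its L copy averaged 318 and 393 CPM and its S copy 103 and 124 CPM. Of the 15 tested genes of that list 12 were above 0 and 3 below, among them *rfx2.S* at -0.17, and the median log2 difference was 0.158. The part of any of these cell types in the members' values was not tested.

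Genes with the most similar pattern were found by Pearson correlation with each of the 5 genes *ca2.L*, *slc26a4.3.S*, *insrr.L*, *rhcg.L* and *foxi1.L* on log2 CPM over the 12 libraries. Among the closest were *ppl.S*, the desmosomal linker periplakin, for *ca2.L* (0.921), *tbc1d24.2.L* for *slc26a4.3.S* (0.951), *astl2e.2.L* for *insrr.L* (0.918), *klhdc8a.S* for *rhcg.L* (0.923) and *atp6v1al.L* for *foxi1.L* (0.931). By the mean of the 5 correlations the leading genes were *tbc1d24.2.L* (0.823), *astl2e.2.L* (0.820), *astl3a.1.L* (0.819), *astl3b.1.L* (0.816) and *atp6ap1.1.S* (0.816). They held 3 genes of astacin-like metalloendopeptidases, the family of the hatching enzymes, and an accessory subunit of the V-type ATPase. *tbc1d24.2.L* stood at 18.4 to 22.5 CPM in control small, 15.2 to 18.9 CPM in control large, 17.4 to 20.7 CPM in thioridazine small and 7.53, 8.67 and 14.3 CPM in thioridazine large. Within the last group its replicate 1 was lowest and its replicate 3 highest. The members other than *ca2.L*, *ca2.S* and *rhcg.L* had the same order. All these correlations share the same low group. After group means were removed, that of *tbc1d24.2.L* with *slc26a4.3.S* was 0.819, and the mean over the 5 genes was 0.556 for *tbc1d24.2.L* and 0.016 for *astl3b.1.L*.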

How the data were processed

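RNA of 12 libraries, each from 15 pooled tadpoles, was grouped by the labels into 4 groups of 3. By the labels and methods, ribosome-depleted stranded libraries were sequenced as single-end reads of 75 nt, trimmed with fastp, cleared of ribosomal RNA with Bowtie2, aligned with STAR and quantified with RSEM. No tool version, strand setting or genome build of the counts was found in the sources used here. Deposited by the authors were RSEM expected counts for 42638 genes (32.6% of values not whole) and log2 CPM values for 26050 genes. Recomputed over that table, log2 values differed from the deposited ones by at most 4.97e-14. Member values given here, scaled over the filtered genes, differed from the deposited ones by up to 0.00615.

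The filter kept 25553 genes with over 1.8 CPM in 3 or more libraries. After TMM scaling (edgeR 4.0.16), voom weights were fitted in limma 3.58.1 (R 4.3.3) with 2 surrogate variables (sva 3.50.0), over all 12 libraries, with two-sided Benjamini-Hochberg adjusted p-values over all genes. A batch named in the study's methods is not in the labels and was not modelled. Counts were rounded to whole numbers for DESeq2 1.42.0 and edgeR's quasi-likelihood test. Other alternatives were 0 or 1 surrogate variable, RLE scaling, other filters, a replicate block and each library left out. Fits were tested on simulated data.

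The members and gene lists were chosen with earlier results of these data known. Of each list with no called gene, the 2 most abundant tested genes were named, and any other gene is named as singled out once its values were seen. Likeness took the 3 named genes with the highest correlation per member and the 5 with the highest mean. Some of the genes that these rules select are not reported here. RefSeq records (Xenopus_laevis_v10.1) gave product names only, and 94.0% of identifiers were found there, all 9 members among them. No sequence was used here.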

Additional observations from a re-analysis of the deposited data

Results flagged for a closer look

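The effect of cohort size on *ca2.L* had opposite directions in the treatments. In controls all 3 large cohort libraries (110.1 to 120.3 CPM) were above all 3 small cohort libraries (93.9 to 103.7 CPM), and under thioridazine all 3 large cohort libraries (73.6 to 88.5 CPM) were below all 3 small cohort libraries (101.0 to 107.0 CPM), a log2 difference of -0.29. The interaction fitted for it was -0.55 ± 0.12 and was not called. The crossing was of the L copy only. In controls *ca2.S* was lower in large cohorts, and the summed pair overlapped, at 162.1 ± 4.9 CPM in small and 166 ± 2.5 CPM in large cohorts (SD). Reads that match both copies were divided by estimation, and the part of that division in the L copy's difference was not tested. The gene was chosen with its values known, so this is a description.

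*ppl.S* (periplakin), the gene most like *ca2.L* over the 12 libraries, had the same crossing, with 217 to 227 CPM in control large, 195 to 212 CPM in control small, 162 to 194 CPM in thioridazine large and 196 to 211 CPM in thioridazine small. Its log2 difference between thioridazine cohorts was -0.16, and its interaction was -0.31 ± 0.11, also not called. It was picked for its likeness to *ca2.L*, so this too is a description.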

How the results depend on the processing

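All members were above the 3-count floor in every library. Counts of calls varied with the model and with single libraries. Without surrogate variables, called genes of the 92 listed acid-base genes went from 0 to 3 for thioridazine against control in small cohorts and from 0 to 4 in large cohorts. Between thioridazine cohorts 0 became 1 with DESeq2 (0.184% of all genes) and 3 with a filter at 5 CPM (0.22%). For the interaction 0 became 1 with that filter (0.23%), which tests fewer genes. With each library left out in turn the listed genes called ranged over 0 to 10 (treatments, small cohorts), 0 to 11 (treatments, large cohorts), 0 to 0 (cohort size, control), 0 to 2 (cohort size, thioridazine) and 0 to 0 (interaction), in fits that called up to 1823 (treatments, small cohorts) and 1232 (treatments, large cohorts) of all genes. Members called between treatments in large cohorts, 3 in the fit reported, ranged over 2 to 4 across the other settings (0.164 to 2.24% of all genes). With a library left out they ranged over 0 to 5 (0.0786 to 4.84%), being 0 without replicate 1 or replicate 2 of control large. Between thioridazine cohorts 0 to 2 members were called in either kind of alternative. All genes called ranged there over 0.0434 to 0.22% across settings and 0.0236 to 0.519% with a library left out. For the interaction 0 to 3 members (0.0196 to 0.23% of all genes) and 0 to 2 members (0.0118 to 0.295%) were called. The cause of these shifts was not tested. Over all genes, calls without surrogate variables and with them were 718 and 41 (treatments, small cohorts), 573 and 57 (treatments, large cohorts), 32 and 75 (cohort size, control), 19 and 24 (cohort size, thioridazine) and 5 and 19 (interaction).

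Of 18 pairs of libraries with the same replicate number, 1 had a correlation of deviations over 0.1 (range -0.148 to 0.102). Pairs with different numbers were not compared, so this cannot decide whether replicate numbers pair the samples. With the replicate number as a block, 0 of the 92 listed genes were called in each of the 5 comparisons. Between thioridazine cohorts calls over all genes went from 24 to 36 (0.141%), and members called from 0 to 1. Between treatments in large cohorts calls over all genes went from 57 to 83 (0.325%), and members called from 3 to 4.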

Other observations

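Of the genes most like the members on average, the 3 hatching-enzyme relatives were at or near 0 in large thioridazine cohorts. *astl3a.1.L* had 0, 0 and 1 counts there, and stood at 34.0 to 94.2 CPM in thioridazine small, 50.1 to 61.5 CPM in control large and 51.3 to 72.7 CPM in control small. *astl3b.1.L* had 0 counts in all 3 thioridazine large libraries, and stood at 3.26 to 7.86 CPM in thioridazine small, 8.29 to 8.94 CPM in control large and 7.4 to 15.3 CPM in control small. *astl2e.2.L* had 0, 5 and 3 counts in thioridazine large. It stood at 5.9 to 22 CPM in thioridazine small, 15.2 to 29.8 CPM in control large and 16.8 to 26 CPM in control small. All of these genes were selected for their likeness to the members over these libraries, and no test was read for them.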
